A study of Homo sapiens with 28 samples.

Results

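GC-poor protein-coding promoters were defined here as the 2 kb around the start of an autosomal protein-coding gene (1 kb either side of the start in GENCODE release 44, genome build hg38) with less than 45% G and C. Olfactory receptor genes, whose symbols begin with OR and a digit, were left out. Of 19111 autosomal promoters, 415 belonged to olfactory receptors and 18696 were tested. Among these, 2485 promoters (13.3%) were GC-poor and 16211 were the other promoters. The GC-poor promoters had a median GC of 40.55%, from 26.6% upwards, against 56.8% in the other promoters, and a median of 17 CpG dinucleotides per window against 101.

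The peaks came from 2 ChIP-seq experiments in U2OS cells, a human osteosarcoma line. In wild-type cells, chromatin was precipitated with an antibody to H3K36me2, dimethylated lysine 36 of histone H3, in 2 replicates without UV and 2 replicates taken 3 h after 20 J m–2 of UV-C. In ASH1L-/- cells, which carry CRISPR deletions in the methyltransferase gene ASH1L and were grown from single colonies, a Flag-tagged C-terminal part of ASH1L (CTD) was expressed transiently from a CMV promoter and precipitated with anti-Flag antibody, in 3 replicates without UV and 3 replicates at 3 h. The controls were input chromatin for H3K36me2 and anti-Flag ChIP from ASH1L-/- cells with empty vector for the CTD, and both entered only through the authors' peak calling. All 10 lists were per replicate, and each held 500000 peaks, which means that a gain of peaks in one place goes with a loss elsewhere, and values are shares of lists of fixed length. The lists carry no read depth, and the precision therefore rests on the spread between replicates. The labels call the replicates biological without naming separate cultures, so this spread may be partly technical. The lists hold no expression values, and the identity of the cells was not checked against marker genes. The highest fold enrichment of the CTD lay inside ASH1L, the gene from which the construct is made, in 6 of 6 lists.

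H3K36me2 is laid down broadly over gene bodies and intergenic chromatin by methyltransferases such as NSD1, NSD2 and ASH1L, and is removed by KDM2 demethylases, which bind unmethylated CpG dinucleotides. Promoters in CpG islands are therefore usually poor in this mark. GC-poor promoters mostly lie outside CpG islands, more often have a TATA box, and commonly belong to genes used in one tissue, such as those of liver, skin, immune cells or the gut lining.

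The 8 promoter sequences printed here come from promoters with large H3K36me2 differences, with whole coverage in all 4 lists or with the lowest GC. LEUTX, LMO3 and SLCO2B1 had the 3 largest differences towards fewer covered bases at 3 h, and PLAC8 and UBD were among the 3 largest towards more. GNG2 and GKN1 were the promoters covered from end to end in all 4 H3K36me2 lists, and ABCA10 had the lowest GC of all. Each runs 5′ to 3′ on the strand of the gene, from 270 bases before the GENCODE start to the 30 bases that begin at it (hg38). Capitals mark CpG dinucleotides (CG) and the TATA motif TATAAA.
LEUTX (chr19:39776325-39776624, plus strand): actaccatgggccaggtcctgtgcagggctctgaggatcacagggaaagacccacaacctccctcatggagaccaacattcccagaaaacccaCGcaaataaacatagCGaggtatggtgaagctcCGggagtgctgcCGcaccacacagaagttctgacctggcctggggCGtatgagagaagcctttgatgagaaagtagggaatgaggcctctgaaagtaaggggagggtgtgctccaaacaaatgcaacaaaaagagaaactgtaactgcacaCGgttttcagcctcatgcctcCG
LMO3 (chr12:16610565-16610864, minus strand): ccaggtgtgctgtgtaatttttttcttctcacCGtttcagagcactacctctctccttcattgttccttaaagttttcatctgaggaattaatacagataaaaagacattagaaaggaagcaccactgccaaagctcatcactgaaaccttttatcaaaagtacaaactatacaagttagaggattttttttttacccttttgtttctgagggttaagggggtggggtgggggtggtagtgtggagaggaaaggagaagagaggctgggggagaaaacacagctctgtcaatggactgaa
SLCO2B1 (chr11:75100293-75100592, plus strand): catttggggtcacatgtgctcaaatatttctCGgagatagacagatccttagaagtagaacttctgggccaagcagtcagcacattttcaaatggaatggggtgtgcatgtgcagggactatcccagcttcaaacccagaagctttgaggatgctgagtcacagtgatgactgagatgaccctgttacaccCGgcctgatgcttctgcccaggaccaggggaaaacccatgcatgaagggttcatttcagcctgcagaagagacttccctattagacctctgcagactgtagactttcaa
PLAC8 (chr4:83137046-83137345, minus strand): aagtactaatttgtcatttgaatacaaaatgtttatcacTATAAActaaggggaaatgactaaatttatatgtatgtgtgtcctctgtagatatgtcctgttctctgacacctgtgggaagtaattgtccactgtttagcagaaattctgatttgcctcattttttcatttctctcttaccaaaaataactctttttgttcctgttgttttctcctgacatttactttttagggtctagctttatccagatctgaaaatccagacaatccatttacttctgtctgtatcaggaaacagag
UBD (chr6:29559703-29560002, minus strand): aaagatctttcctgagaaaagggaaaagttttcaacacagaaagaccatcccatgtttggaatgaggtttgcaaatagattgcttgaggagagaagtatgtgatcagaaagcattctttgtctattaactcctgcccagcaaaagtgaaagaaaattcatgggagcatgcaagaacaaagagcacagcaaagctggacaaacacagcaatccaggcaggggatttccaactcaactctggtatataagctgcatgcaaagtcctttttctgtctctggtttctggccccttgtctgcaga
GNG2 (chr14:51825925-51826224, plus strand): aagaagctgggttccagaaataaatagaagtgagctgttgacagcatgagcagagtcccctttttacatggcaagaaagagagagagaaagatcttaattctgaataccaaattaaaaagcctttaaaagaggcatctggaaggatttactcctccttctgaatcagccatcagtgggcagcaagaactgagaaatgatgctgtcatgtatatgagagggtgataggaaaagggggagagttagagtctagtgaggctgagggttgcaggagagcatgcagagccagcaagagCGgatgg
GKN1 (chr2:68974303-68974602, plus strand): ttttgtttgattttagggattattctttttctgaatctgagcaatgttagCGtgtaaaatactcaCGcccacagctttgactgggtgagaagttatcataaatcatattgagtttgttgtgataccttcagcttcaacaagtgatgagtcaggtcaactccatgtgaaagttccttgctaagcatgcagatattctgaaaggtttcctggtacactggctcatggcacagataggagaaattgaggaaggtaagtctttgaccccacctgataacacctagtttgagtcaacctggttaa
ABCA10 (chr17:69244817-69245116, minus strand): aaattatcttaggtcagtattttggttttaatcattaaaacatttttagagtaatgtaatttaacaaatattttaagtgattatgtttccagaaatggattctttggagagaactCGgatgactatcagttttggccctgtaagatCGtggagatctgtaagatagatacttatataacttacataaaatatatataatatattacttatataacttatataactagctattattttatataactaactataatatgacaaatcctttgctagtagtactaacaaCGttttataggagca
The stretches of PLAC8 and UBD held 0 CpG, that of LMO3 held 1 and that of LEUTX held 7. Those of LEUTX and SLCO2B1 had 52.7% and 48.7% GC, above the 45% set for the whole window. The rest lay between 25.3% (ABCA10) and 44.7% (GNG2). TATAAA occurred in 1 of the 8 stretches, in that of PLAC8 and 231 bases before the start. Between 40 and 20 bases before the start, on the strand of the gene, this motif was found in 181 GC-poor promoters (7.28%) and in 365 of the other promoters (2.25%), against 2.92% of all promoters tested. The GENCODE start is the outermost one annotated. The RefSeq table used held a start of the same symbol for 1898 GC-poor promoters and 12415 other promoters, and the rest could not be compared. Such a start lay inside the window of 1337 GC-poor promoters (53.8% of all 2485) and of 11037 other promoters (68.1% of all 16211). For SLCO2B1, PLAC8 and LMO3 the nearest RefSeq start in the table used was 50544, 22347 and 2381 bases away, so these windows may not be the promoters in use.

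H3K36me2 peaks covered GC-poor promoters about as much as the rest of the genome. Without UV, they covered 16.03% of the bases of GC-poor promoters in replicate 1 and 14.4% in replicate 2. At 3 h, replicate 1 had 14.4% and replicate 2 had 14.7%. Of the lists at 3 h, replicate 2 lay between the lists without UV and replicate 1 just below both. Over all autosomes the lists without UV covered 16.4% and 15.8%, and those at 3 h covered 14.4% and 14.8%. Per Mbp of GC-poor promoter, 184 and 176 peaks were centred in the lists without UV, against 176 and 175 in those at 3 h.

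Other promoters differed in both respects. The lists without UV covered 12.9% and 14.0% of their bases, and those at 3 h covered 7.32% and 7.95%. Both lists at 3 h lay below both lists without UV. As means over 2 lists, GC-poor promoters were covered to 15.2% ± 1.13 (SD, n = 2) in unirradiated cells and to 14.5% ± 0.224 (SD, n = 2) at 3 h. The corresponding means of other promoters were 13.4% ± 0.774 and 7.63% ± 0.441 (SD, n = 2). The log2 difference between 3 h and no UV was -0.07 at GC-poor promoters (exact permutation test, two-sided, p = 0.667) and their peak density differed by -0.04 on the log2 scale (exact permutation test, p = 0.333). The change at GC-poor promoters exceeded that at other promoters by 0.75 on the log2 scale, a ratio of 1.68, with no overlap between the lists of the 2 conditions (exact permutation test, p = 0.333). With 2 lists against 2, 0.333 is the smallest p this test allows, so none of these differences could pass 0.05. The surroundings of other promoters also had less at 3 h. There, in the 2-kb windows from 4 to 6 kb on either side of the start, the lists without UV covered 14.5% and 15.2%. Those at 3 h covered 9.51% and 9.47%. Around GC-poor promoters the same windows had 17.1% and 16.1% without UV, against 15.8% and 16.03% at 3 h. GC-poor promoters were covered more than other promoters in 4 of 4 lists, by a mean log2 ratio of 0.55 that ran from 0.05 to 0.97 (exact sign-flip test, two-sided, p = 0.125, the smallest p for 4 lists). With GC below 40% in place of 45% this ratio was 0.0010 (exact sign-flip test, p = 1), and with peaks of −log10 p of at least 2 alone it was 0.41 and no longer of one sign in the 4 lists (exact sign-flip test, p = 0.375).

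**Figure D1:**
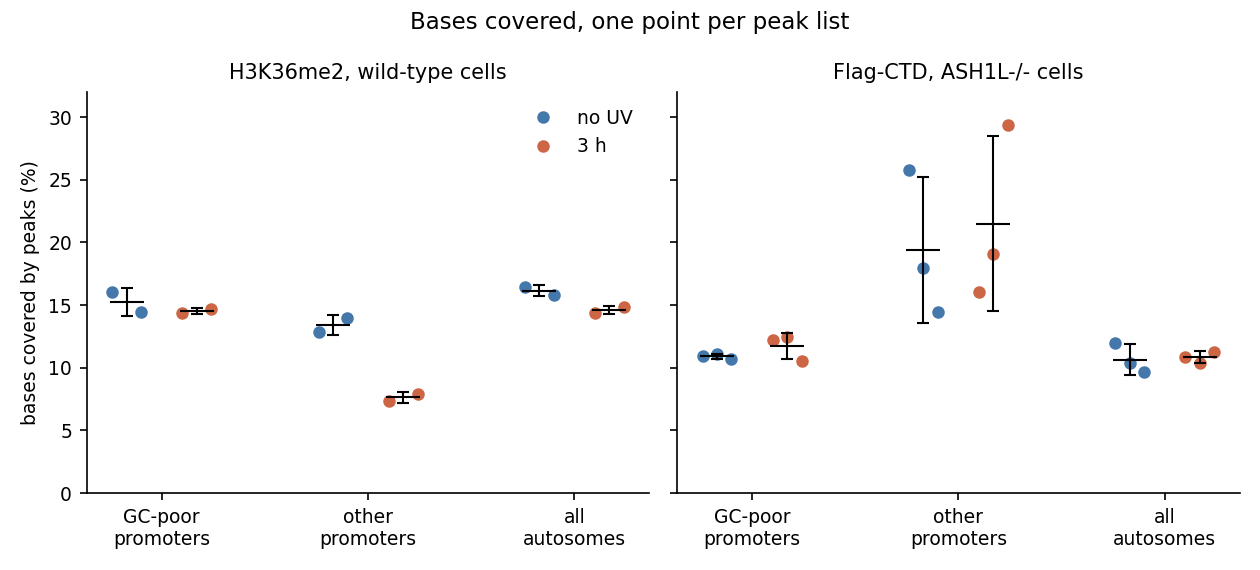
Percent of bases covered by peaks (vertical axis) at GC-poor promoters, other promoters and all autosomes, with one point per peak list, and bars for the mean and SD over the lists of a condition. The 4 H3K36me2 points of GC-poor promoters lie between 14.4% and 16.03%, while those of other promoters at 3 h lie at 7.32% and 7.95%, and CTD points of GC-poor promoters lie between 10.5% and 12.5%.

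The CTD showed the opposite order of promoters. Its peaks covered 10.9%, 11.1% and 10.7% of the bases of GC-poor promoters in the 3 lists without UV. At 3 h they covered 12.2%, 12.5% and 10.5%. These ranges overlapped, since replicate 3 at 3 h was the lowest of all 6 lists. Of other promoters, the lists without UV covered 25.8%, 17.9% and 14.5%, and those at 3 h covered 16.04%, 19.1% and 29.4%. Coverage of GC-poor promoters was below that of other promoters in 6 of 6 lists, with a mean log2 ratio of -0.81 ± 0.45 (SD, n = 6; exact sign-flip test, two-sided, p = 0.03125, the smallest p for 6 lists). Between conditions, the CTD at GC-poor promoters differed by 0.10 on the log2 scale in covered bases (exact permutation test, two-sided, p = 0.4) and by 0.07 in peak density (exact permutation test, p = 0.3). The difference of this change from that of other promoters was -0.04 (exact permutation test, p = 1). With 3 lists against 3, 0.1 is the smallest p that can be reached. The authors called the lists without UV against unpooled empty-vector libraries and those at 3 h against pooled ones, so the control and the UV treatment cannot be told apart in these comparisons. Replicate 1 without UV and replicate 3 at 3 h stood apart from the other CTD lists in how steeply their coverage climbed with GC. Without both, the ratio to other promoters was -0.53 in 4 lists (exact sign-flip test, p = 0.125).

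GC-poor promoters were not uniform. The 297 with less than 35% GC were little covered by H3K36me2, 4.83% and 4.58% in the lists without UV against 5.12% and 5.43% in those at 3 h. From 35% to 40% GC, 815 promoters had 13.7% and 11.95% in the lists without UV, against 12.6% and 13.5% at 3 h. The 1373 promoters between 40% and 45% GC had 19.8% and 18.0% in the lists without UV, against 17.4% in both lists at 3 h. Coverage thus increased with GC within the GC-poor promoters in every list. Above 45% GC, the lists at 3 h lay below those without UV in every class. From 45% to 50% GC the lists without UV had 16.02% and 15.3%, against 11.4% and 11.9% at 3 h. The mean log2 difference between 3 h and no UV went from -0.43 in this class to -1.43 at 65% GC or more. The GC threshold itself was no step. The 332 promoters from 44% to 45% GC had 20.3%, 19.2%, 16.03% and 16.7% in the lists without UV 1 and 2 and at 3 h 1 and 2, and the 387 promoters from 45% to 46% GC had 19.01%, 17.6%, 15.1% and 15.8%. Mean log2 differences between 3 h and no UV were -0.27 and -0.25 in these neighbouring classes.

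For the CTD, coverage climbed with GC across the GC-poor classes in all 6 lists as well. Below 35% GC it was between 2.32% (3 h, replicate 3) and 6.80% (no UV, replicate 3). From 40% to 45% GC it was between 11.95% and 14.7%.

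**Figure D2:**
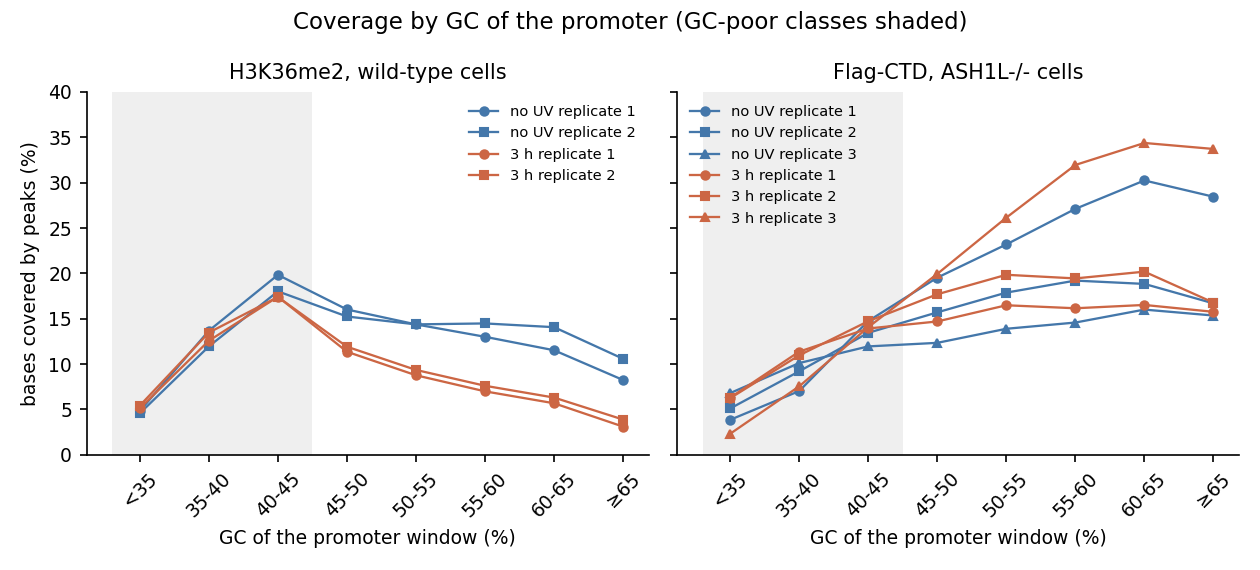
Percent of bases covered by peaks (vertical axis) in 8 classes of promoters by GC of the window (horizontal axis), one line per peak list, for H3K36me2 and for the CTD, with the GC-poor classes shaded. H3K36me2 lines of the 2 conditions lie close together below 40% GC, slightly apart from 40% to 45% GC and further apart above it, and the CTD lists no UV replicate 1 and 3 h replicate 3 climb most steeply.

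CpG content separated GC-poor promoters more sharply than TATA boxes did. Of the 2485, 143 had a ratio of observed to expected CpG of 0.6 or more, a value usual for CpG islands. H3K36me2 covered 5.17% and 4.62% of their bases in the lists without UV, against 4.25% and 4.38% at 3 h. The 1066 promoters with a ratio below 0.2 had 18.1%, 16.2%, 16.9% and 17.03% in the same order. Every list of the first class lay below every list of the second. Among promoters of 40% to 45% GC alone, the 137 with the higher ratio had between 3.87% and 5.11%, and the 469 with the lower ratio between 23.8% and 26.4%, so these classes differed at like GC. Their surroundings differed in the same direction by less. In the flanks, the 2-kb windows from 4 to 6 kb on either side of the start, the CpG-rich class of GC-poor promoters had between 7.17% and 8.19%, and the CpG-poor class between 16.3% and 17.2%. CTD coverage was 13.8% to 17.2% in the CpG-rich class and 8.61% to 11.5% in the CpG-poor class. With TATAAA, 181 promoters had an H3K36me2 coverage of 15.8%, 14.1%, 16.2% and 15.8%, against 16.05%, 14.5%, 14.2% and 14.6% without it. These ranges overlapped. No test was made on these classes.

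Around the start, GC-poor promoters had a narrow local maximum between shallow minima. In the mean of the 2 lists without UV, H3K36me2 coverage was 13.9% in the 200-bp bin centred 500 bp before the start, 19.1% in the bin centred 100 bp after it, and 12.9% at 900 bp after it. At 3 h the same bins had 13.1%, 17.8% and 12.9%. Coverage was similarly high further upstream, with 19.03% at 1900 bp before the start without UV. At 3 h the highest bin of all lay 1700 bp before the start, with 18.2%. Other promoters had their minimum near the start instead, 11.8% at 500 bp after it without UV and 6.39% at 300 bp before it at 3 h, beside maxima of 20.6% and 13.3% upstream. The CTD had its maximum at 100 bp after the start of GC-poor promoters, with 13.4% without UV and 15.6% at 3 h. GC moved with these profiles: in GC-poor promoters it was 38.2% at 500 bp before the start, 45.1% at 100 bp after it and 38.7% at 900 bp after it. Its part in the maximum was not tested. Over the whole window, H3K36me2 coverage of GC-poor promoters was below that of their own flanks in 4 of 4 lists, by a mean log2 ratio of -0.13 (exact sign-flip test, two-sided, p = 0.125). The ratio was -0.62 with GC below 40% (exact sign-flip test, p = 0.125) and -0.016 with GC below 50% (exact sign-flip test, p = 0.5). CTD coverage exceeded that of the flanks in 5 of 6 lists, by 0.06 (exact sign-flip test, p = 0.09375).

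Single promoters were often without a peak. No base was covered in any H3K36me2 list at 914 GC-poor promoters (36.8%), against 49.4% of other promoters, and 578 (23.3%) had covered bases in all 4 lists, against 15.1% of other promoters. At least 1000 of the 2000 bases were covered in both lists without UV at 157 GC-poor promoters and in both lists at 3 h at 145, and at 82 in all 4. For the 16211 other promoters these counts were 1126, 549 and 481. In both lists without UV this was 6.32% of GC-poor promoters and 6.95% of other promoters. In both lists at 3 h it was 5.84% and 3.39%. GNG2, which encodes a gamma subunit of heterotrimeric G proteins, and GKN1, a gastrokine of the stomach lining, had all 2000 bases covered in each of the 4 lists. The highest fold enrichment over input was 2.18, 2.01, 2.33 and 1.998 at GNG2 and 1.99, 1.91, 1.85 and 1.97 at GKN1. For the CTD, 330 GC-poor promoters (13.3%) had no covered base in 6 lists, against 3.63% of other promoters, and 49 had covered bases in all 6. At 0 promoters did the CTD cover 1000 bases in all 6 lists.

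The H3K36me2 lists resembled each other promoter by promoter and the CTD lists barely did. Across the 2485 GC-poor promoters, which are not independent replicates, Pearson's r between covered bases of pairs of H3K36me2 lists was between 0.64 and 0.73, within conditions and between them. Between pairs of CTD lists it was between 0.08 and 0.20. CTD values of single GC-poor promoters below are therefore hardly repeatable. Of the CTD peaks at GC-poor promoters, the share with a −log10 p of at least 2 ranged from 6.59% to 9.84% over the lists, against between 40.9% and 48.6% of the H3K36me2 peaks.

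The 2 measures were also set side by side. At the 578 GC-poor promoters with H3K36me2 in all 4 lists, the CTD lists without UV covered 14.8%, 13.3% and 13.1%, and those at 3 h covered 15.8%, 15.9% and 13.1%. At the 914 without H3K36me2 in any list the lists without UV covered 8.11%, 9.38% and 9.21%, and those at 3 h covered 10.8%, 10.6% and 8.82%. The first class was higher in 6 of 6 lists. This also held among promoters of 40% to 45% GC, where 397 promoters with H3K36me2 had between 13.4% and 17.7% and 514 without it between 10.3% and 13.7% over the lists. The flanks, 4 to 6 kb on either side of the start, differed in the same direction by less in 6 of 6 lists. Over the lists, the CTD covered between 11.02% and 13.4% of the flanks of the 578 promoters. For the flanks of the 914 it covered between 8.92% and 9.91%. The part of the surroundings in the difference at the promoters was not tested. The experiments used different cells, since the CTD was measured without endogenous ASH1L.

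A promoter was called lower or higher at 3 h where every list at 3 h lay below or above every list without UV and the means differed by at least 500 bases. These calls have no test. For H3K36me2, 128 GC-poor promoters (5.15%) were called lower and 100 (4.02%) higher. Among all 18696 promoters tested, 7.15% were called lower and 0.76% higher. Calls in both directions were thus of similar number at GC-poor promoters, whereas other promoters had 1208 lower and 42 higher. GC-poor promoters made up 100 of the 142 promoters called higher (70.4%) and 128 of the 1336 called lower (9.58%). Replicates of one condition also differed: 397 GC-poor promoters (15.98%) were at least 500 bases apart between the 2 replicates without UV, and 352 (14.2%) between the 2 at 3 h. For the CTD, 33 GC-poor promoters (1.33%) were called lower and 56 (2.25%) higher, against 2.16% and 3.74% of all promoters tested. Without replicate 1 (no UV) and replicate 3 (3 h) of the CTD these counts were 102 (4.10%) and 150 (6.04%), against 6.68% and 8.36% of all promoters tested.

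The promoters called lower differed most at LEUTX, a homeobox gene of the early embryo, where peaks covered 1730 and 980 of 2000 bases without UV and 0 in both lists at 3 h. LMO3, a LIM-domain transcription cofactor, had 1989 and 1451 bases without UV and 796 and 0 at 3 h. SLCO2B1, an organic anion transporter, had 1386 and 2000 bases without UV and 283 and 540 at 3 h. At each of the 3, both lists without UV lay above both at 3 h, while replicates of a condition also differed, at LEUTX by as much as 1730 against 980 bases. CRACR2A, a regulator of calcium entry, followed with 800 and 1534 bases without UV and 0 in both lists at 3 h. SPATA31D1, of a gene family active in testis, had 1291 and 1298 bases without UV against 185 and 214 at 3 h, the closest replicates of the group. FBXO9, a substrate receptor of ubiquitin ligases, had 1154 and 1568 without UV and 85 and 459 at 3 h. Its nearest RefSeq start in the table lay 13007 bases away. At 34 of the 128 promoters called lower, both lists at 3 h had no covered base.

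Promoters called higher differed by similar numbers of bases. PLAC8, a small cysteine-rich protein known from placenta, had 0 and 503 bases covered without UV and 1486 and 1566 at 3 h. NAT1, an arylamine N-acetyltransferase, had 504 and 210 bases without UV and 1343 and 1800 at 3 h. UBD, the ubiquitin-like modifier FAT10, had 149 and 310 without UV and 1360 and 1380 at 3 h, and its window holds a RefSeq start. SNX31, a sorting nexin, had 332 and 318 bases without UV against 1368 and 1482 at 3 h. The window of ATP6V0D2, a subunit of the vacuolar proton pump of osteoclasts, had 7 and 31 bases without UV and 1382 and 781 at 3 h. NR3C1, the glucocorticoid receptor, had 402 and 337 bases without UV and 1570 and 1238 at 3 h, and its window also holds a RefSeq start. For NAT1, SNX31 and ATP6V0D2 the table held no RefSeq start of the same symbol, and that of PLAC8 lay 22347 bases away. At 22 of the 100 promoters called higher, neither list without UV had a covered base. Both sets of calls were spread over the genome, with calls on 21 chromosomes for lower and 18 for higher, and their median GC was 41.8% and 41.3%. TATAAA was present in 4 of those called lower and 7 of those called higher.

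**Figure D3:**
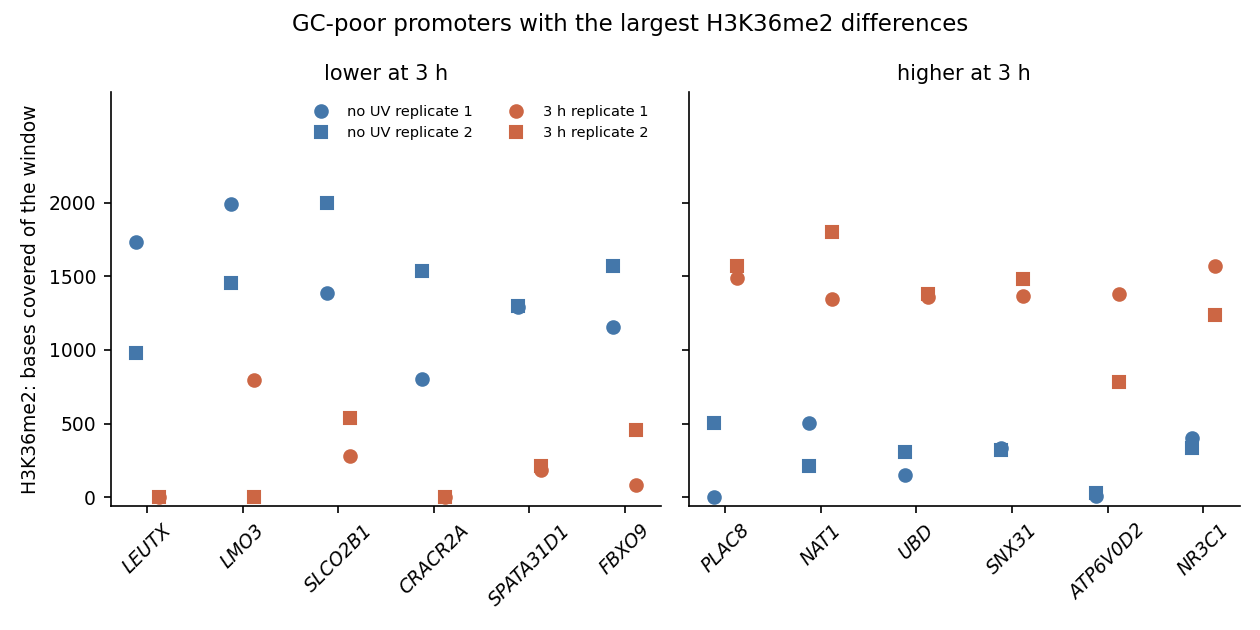
Bases of the 2000-base window covered by H3K36me2 peaks (vertical axis) at the 6 GC-poor promoters called lower and the 6 called higher at 3 h by the largest difference of means, one point per list. By the rule that chose them the points of the 2 conditions do not overlap, and the points of 3 h lie at 0 in both lists for LEUTX and CRACR2A.

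Calls for the CTD rested on less repeatable lists. OSBPL9, an oxysterol-binding protein relative, had 1379, 1324 and 938 covered bases without UV and 0 in the 3 lists at 3 h. H3K36me2 covered 1685, 1649, 1674 and 1761 bases of this window, about the same in both conditions. ENSG00000285625 had 103, 1790 and 1190 bases of CTD without UV and FAM90A27P had 1030, 555 and 1340, both with 0 in all lists at 3 h and 0 bases of H3K36me2. CHIA, an acidic chitinase, had 0 in the 3 lists without UV and 1510, 1510 and 632 bases at 3 h. SYNE2, a nuclear envelope protein, had 0, 0 and 372 bases without UV and 808, 2000 and 1064 at 3 h. EHHADH, an enzyme of peroxisomal fatty acid oxidation, had 651, 225 and 0 without UV and 877, 1557 and 1743 at 3 h. At CHIA and EHHADH no list had H3K36me2. The nearest RefSeq start lay 58907 bases away for OSBPL9 and 91105 bases away for SYNE2, so these windows may not be the promoters in use. For ENSG00000285625, FAM90A27P, CHIA and EHHADH the table held no RefSeq start, so their starts could not be compared. Calls in both experiments coincided at 9 promoters. Among the 2485 GC-poor promoters, 128 and 100 had H3K36me2 calls lower and higher, and 33 and 56 had CTD calls. Whether 9 is more than unrelated calls would give was not tested. ADAM2, DEFB135, MED7 and SLCO2B1 were lower in both, HEPN1 and HSD11B1 higher in both, FOLR3 and SLC38A9 lower in H3K36me2 and higher in CTD, and RMDN2 the reverse. These were named after their values were seen where they lie outside the rule for named genes.

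The most CTD over all 6 lists was found at PFDN1, a subunit of the chaperone prefoldin, with 1112, 1751 and 783 bases without UV and 1582, 1274 and 660 at 3 h. C17orf78 had 2000, 852 and 1894 bases without UV and 1065, 222 and 1075 at 3 h. ABHD10, a mitochondrial hydrolase, had 1111, 628 and 387, then 1942, 986 and 1507. BPIFC had 932, 532 and 832, then 1544, 1128 and 1201, and was the only one of these 5 that was called higher. OSGEPL1, which acts in the modification of mitochondrial transfer RNA, had 1377, 558 and 1440, then 0, 1287 and 1211. Of these 5 promoters, PFDN1, ABHD10 and OSGEPL1 had no base of H3K36me2 in 4 lists, and BPIFC and C17orf78 had 613 and 404 bases in replicate 1 without UV alone. At the other end, the 3 promoters of lowest GC were nearly bare. ABCA10, a lipid transporter relative with 26.6% GC, had at most 158 bases of H3K36me2 and at most 73 of CTD in any list. SI, sucrase-isomaltase of the gut lining, had 0 bases in all 10 lists, and DEFB114, a beta-defensin, had 140 bases of CTD in replicate 1 at 3 h and 0 elsewhere. In all, 223 GC-poor promoters had no covered base in the 10 lists, and their median GC was 39.55%.

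Gene lists differed widely in H3K36me2. Each list is given by the coverage of its GC-poor members in the order no UV 1 and 2, then 3 h 1 and 2, beside 16.03%, 14.4%, 14.4% and 14.7% over all GC-poor promoters. H3K36me2 calls in a list are to be read beside the 5.15% lower and 4.02% higher of all GC-poor promoters. Of all promoters tested, 7.15% were lower and 0.76% higher. For the CTD, 1.33% of GC-poor promoters were called lower and 2.25% higher, against 2.16% and 3.74% of all promoters tested. Genes of a list often lie side by side and can share a peak, so they are not independent. Keratin-associated proteins, which build the hair shaft, had 42 GC-poor promoters and 25.7%, 27.2%, 26.5% and 28.9%. All 42 had covered bases in some list. KRTAP3-1 had the most, with 1518, 1430, 1074 and 1197 bases, and KRTAP25-1 the least, with 8 bases in 1 list. Of these 42 promoters 1 was called lower (KRTAP26-1, 1380, 780, 738 and 0 bases) and 3 higher (KRTAP19-2, KRTAP13-2 and KRTAP19-6), beside 7.15% and 0.76% of all promoters tested. Cornified envelope proteins, the outer shell of the epidermis, had 19 such promoters and 23.4%, 26.4%, 20.4% and 26.9%. CRNN, cornulin, was called higher with 1453 and 1354 bases without UV and 2000 and 1830 at 3 h. LCE1F and LCE1E, late cornified envelope proteins, were called lower, with 466 and 913 and with 359 and 757 bases without UV, and 0 in both lists at 3 h. Keratins had 11 promoters with 22.5%, 14.4%, 20.6% and 21.9%, and KRT20 was called lower.

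The MS4A family, four-pass membrane proteins that include the B-cell protein CD20, had the highest mean coverage over the 4 lists, with 13 promoters and 38.4%, 36.3%, 23.9% and 27.4%. Both lists at 3 h were below both without UV. Calls were lower for 3 of them (MS4A6E, MS4A4E and MS4A13) and higher for 0, beside 7.15% and 0.76% of all promoters tested. At 3 h, keratin-associated proteins and serpins had more than this family in both lists. MS4A6E had 764 and 835 bases without UV and 0 and 267 at 3 h, and MS4A13 had 723 and 406 bases without UV and 0 in both lists at 3 h. Immune cell surface proteins had 32 promoters with 22.3%, 14.3%, 13.5% and 16.5%, of which 4 were called lower (SLAMF6, FCRL1, FCRL6 and HAVCR1) and 2 higher (FCRL4 and CD226), beside 7.15% and 0.76% of all promoters tested. CD28, the T-cell costimulator, had the most with 2000, 669, 657 and 2000 bases, a case in which replicates differed more than conditions. C-type lectins and NK receptors had 22 promoters with 18.3%, 15.97%, 20.5% and 15.9%, led by CLEC9A with 2000, 1415, 2000 and 1858 bases, and CLEC5A was called higher.

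Secreted signals were mixed. Chemokines had 12 promoters with 21.9%, 20.6%, 27.3% and 21.2% and no H3K36me2 call in either direction. Of these 12, CXCL8 and CCL5 were called higher for the CTD, beside 2.25% of GC-poor promoters and 3.74% of all promoters tested. CXCL8, the neutrophil attractant interleukin 8, had 0, 0 and 34 bases without UV and 1048, 751 and 355 at 3 h. Its strongest peaks at 3 h had a −log10 p of 1.67, 1.51 and 1.65. With peaks of −log10 p of at least 2 alone, 0 GC-poor promoters were called for the CTD. Other lists also had CTD calls, such as 3 higher of 31 ZNF genes, and 2 higher and 1 lower of 22 C-type lectins and NK receptors. The list of interleukins, which by its symbols also took in receptors such as IL7R, had 14 promoters with 17.8%, 15.3%, 16.2% and 13.4%. IL7R was called lower with 1545 and 1530 bases without UV and 822 and 924 at 3 h, and IL17F was called lower too. IL21 was called higher with 0 in both lists without UV and 536 and 593 at 3 h. All 17 autosomal type I interferons were GC-poor, and they had 11.7%, 6.38%, 12.8% and 5.04%, with 0 calls. IFNK, of keratinocytes, led this list with 1520, 413, 896 and 378 bases, and the replicates numbered 1 were higher than those numbered 2 in both conditions.

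Low mean coverage was found in other lists, and the part of their GC in it was not tested. Of 46 autosomal defensins, small antimicrobial peptides, 32 were GC-poor, and these had 5.57%, 3.95%, 3.20% and 3.13%. At 26 of the 32 no base was covered in 4 lists, against 914 of all 2485, and DEFB135 was called lower with 859 and 1008 bases without UV and 464 and 220 at 3 h. DEFB116 had the most, with 988, 900, 1324 and 983 bases. Bitter taste receptors had 19 promoters with 7.62%, 3.34%, 0.57% and 3.77%, and 9 of the 19 were at 0 in 4 lists. Cytochrome P450 enzymes had 8 with 1.22%, 4.06%, 8.98% and 4.26%, and 5 of the 8 were at 0 in 4 lists, CYP7A1 of bile acid synthesis among them. Secretory calcium-binding phosphoproteins, which include the enamel, milk and saliva proteins, were GC-poor in 19 of 20 cases and had 8.14%, 5.39%, 9.71% and 9.96%. Of these 19 only 4 were at 0 in 4 lists, against 914 of all 2485. DSPP, of dentin, was called higher with 0 in both lists without UV and 350 and 666 at 3 h. Cadherins had 6 GC-poor promoters, 0% in both lists without UV, and 5.93% and 13.2% at 3 h. This came mostly from CDH11, the cadherin of osteoblasts, with 712 and 1341 bases at 3 h, while 4 of the 6 were at 0 in 4 lists. The table used held no RefSeq start of CDH11.

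Liver plasma proteins had 26 promoters with 13.2%, 19.3%, 15.7% and 16.1%. C4BPB, a complement inhibitor subunit, had the most with 997, 2000, 2000 and 2000 bases, and FGB, fibrinogen beta, had 0 in 4 lists. UDP-glucuronosyltransferases, which conjugate drugs and bilirubin, had 14 promoters with 12.3%, 14.0%, 15.6% and 23.9%, and UGT1A7 and UGT2A3 were called higher. Serpins, protease inhibitors, had 11 with 24.65%, 13.8%, 33.25% and 27.5%, led by SERPINB2 with 1481, 1180, 1377 and 1198 bases, and SERPINB11 was called higher. Zinc finger genes named ZNF were seldom GC-poor (31 of 496), and these had 11.6%, 13.8%, 10.3% and 7.95%. ZNF366 was called lower with 2000 bases in both lists without UV and 1452 and 959 at 3 h. Of the remaining lists, GABA and glutamate receptor subunits had 10 promoters between 6.54% and 14.7%, potassium channels 9 between 10.99% and 19.8%, and replication-dependent histones 8 between 9.01% and 13.7%, with H2BC9 called higher.

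Extracellular matrix and bone proteins concern the tissue from which U2OS cells derive. Of 35 autosomal genes of this list 23 had a GC-poor promoter, and H3K36me2 covered 17.9%, 11.9%, 11.8% and 15.9% of their bases. The matrix metalloproteinases of this list varied. MMP13, collagenase 3, was called lower with 1474 and 1324 bases without UV and 565 and 1030 at 3 h. MMP1, the interstitial collagenase, had 916 and 669 bases without UV and 599 and 913 at 3 h, which overlapped, and its CTD was called higher with 609, 416 and 629 bases without UV and 924, 1587 and 679 at 3 h. MMP3 had 263, 1064, 360 and 477 bases, MMP12 had 455, 0, 808 and 631, and MMP10 had 0, 0, 0 and 382.

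Structural proteins varied. FBN2, fibrillin 2, was called lower with 1052 and 759 bases without UV and 0 in both lists at 3 h, and its nearest RefSeq start in the table was 120941 bases away. COL14A1 had 988, 1034, 691 and 1202 bases, COL3A1 had 369, 0, 240 and 653, COL5A2 had 459, 244, 565 and 338, and ASPN, asporin, had 1017, 379, 433 and 625. Of the mineralisation proteins, DMP1 had 433, 0, 650 and 769 bases and IBSP 67, 0, 0 and 88. OMD had 325, 0, 536 and 0, TNFSF11, the osteoclast factor RANKL, had 209, 0, 0 and 205, and KERA had 195 bases in 1 list. The remaining 8 were without H3K36me2 in 4 lists: COL10A1, DCN, EPYC, LUM, OGN, POSTN, SPP1 and RUNX2, the last the transcription factor of osteoblasts. In this order their GC was 34.2%, 34.35%, 31.1%, 33.25%, 29.0%, 32.6%, 36.05% and 34.75%. All GC-poor promoters below 35% GC had only between 4.58% and 5.43% of their bases covered. ASPN and COL5A2, also below 35% GC, had covered bases in all 4 lists. In all, 2 of 23 were called lower and 0 higher, beside the 7.15% and 0.76% of all promoters.

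By chromosome, H3K36me2 coverage of GC-poor promoters was highest on chromosomes 10 and 21 among those with at least 40 such promoters. It was 25.0%, 21.5%, 19.8% and 24.2% at the 99 promoters of chromosome 10, and 22.5%, 23.6%, 22.5% and 22.9% at the 49 of chromosome 21. The lowest values were found on chromosome 19, with 6.52%, 4.59%, 1.87% and 2.47% at 47 promoters, chromosome 13, with 8.42%, 6.60%, 4.39% and 6.47% at 52, and chromosome 16, with 5.50%, 6.09%, 7.11% and 7.73% at 47. Chromosome 21 also holds a large cluster of keratin-associated proteins. The part of this cluster in the order was not tested.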

How the data were processed

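Peak lists of H3K36me2 (4) and CTD (6) ChIP-seq were used as deposited. From the submitters' processing notes and the study's methods, reads were trimmed with Trim Galore 0.6.5 and aligned to hg38 lacking chromosome Y by bwa mem (BWA 0.7.17-r1188). The authors dropped poorly mapped reads, duplicates (Picard) and blacklisted regions with SAMtools 1.7 and bedtools 2.29.2, then ran MACS2 2.2.7.1 in broad mode on every replicate separately. For H3K36me2, paired-end reads that topped up the depth were pooled with single-end reads. Each deposited peak carries a fold enrichment (the ratio of ChIP to control), a −log10 p-value and a −log10 of the q-value. H3K36me2 was called against inputs pooled over duplicates. The methods name triplicates, while the labels give 2 H3K36me2 replicates per condition. The weakest peak of a list had a −log10 p between 1.22 and 1.42.

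Peaks were placed on 2-kb windows around GENCODE release 44 gene starts, with no filter on peaks, and the bases covered by the union of a list's peaks and the peaks centred in the window were counted. GC and CpG came from the hg38 sequence, and CpG observed over expected is the count times the length over the product of the C and G counts. RefSeq starts (GRCh38.p14 table, matched by symbol) were found for 1898 GC-poor promoters, and 488 of 488 RefSeq promoter sequences of chromosome 21 equalled hg38. Per-list log2 values were compared between conditions by exact permutation tests and between promoter classes by exact sign-flip tests over lists, all two-sided.

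GC-poor promoters, gene lists and tests were chosen with earlier results of these data known. Genes that could be named are, per gene list, the promoters of highest and lowest mean H3K36me2, those called and all of the matrix and bone list. Outside the lists they are the 6 largest H3K36me2 differences called in each direction, the 3 largest for the CTD, promoters wholly covered by H3K36me2 (up to 5), the 5 with most CTD and the 3 of lowest GC. Alternatives were peaks of −log10 p of 2 or more, peaks seen in another replicate, GC below 40% or 50%, windows of 2 kb either side, promoters that overlap no other, every overlapping peak, scaling to the autosomes, other minimum differences, a replicate block and leaving out each replicate. Functions were tested on simulated data. Analyses ran in Python 3.11.15 (pandas 2.3.3, NumPy 2.4.6, SciPy 1.17.1), and matplotlib 3.10.9 drew the plots. Of the genes this rule allows, the text names a part, and a withheld item is not reported here.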

Additional observations from a re-analysis of the deposited data

How the results depend on the processing

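Over 14 results and 195 alternative values, 132 kept their direction and side of the threshold, or their count within 1.5 times. Only CTD coverage against other promoters and against flanks could pass 0.05, so for the other tests the side was fixed in advance. The replicate block cannot change a difference, and its values count among the 132. So does the H3K36me2 ratio to other promoters of 0.0010 with GC below 40%. Depth is unknown, and equal list lengths make all values relative. The causes of the differences below were not tested. The small H3K36me2 difference in peak density at GC-poor promoters turned positive with peaks of −log10 p of 2 or more (0.10), with GC below 40% (0.12) and with 2 kb either side (0.00998). That in covered bases turned positive with peaks of −log10 p of 2 or more (0.030), with GC below 40% (0.043) and relative to all autosomes (0.077), and ran from -0.14 to 0.0098 when each replicate was left out, positive only without replicate 1 (no UV). The H3K36me2 ratio to other promoters was 0.49 with peaks seen in another replicate, 0.38 with 2 kb either side and 0.39 at promoters that overlap no other (exact sign-flip test, p = 0.25 for each). The CTD difference in covered bases was -0.092 with peaks of −log10 p of 2 or more. CTD coverage against flanks was -0.32 with GC below 40% and 0.26 with GC below 50% (exact sign-flip test, p = 0.03125 for both). The CTD difference from other promoters in the change at 3 h ran from -0.27 to 0.28 when each replicate was left out. It was positive without replicate 2 (0.0045) or replicate 3 (0.14) of no UV, and without replicate 3 of 3 h (0.28). CTD coverage against other promoters ran from -0.89 to -0.68, each with p = 0.0625 (exact sign-flip test), the smallest for 5 lists. Without replicate 1 of no UV and replicate 3 of 3 h together, a choice made after seeing the data, these 2 values were 0.059 and -0.53, and 102 promoters were called lower and 150 higher for the CTD.

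Counts of calls (H3K36me2 lower, H3K36me2 higher, CTD lower, CTD higher) were 61, 66, 0 and 0 with peaks of −log10 p of 2 or more, 41, 38, 8 and 18 with GC below 40%, 230, 175, 77 and 85 with 2 kb either side, 9, 8, 2 and 6 with a minimum difference of 1000 bases, and 53, 52, 11 and 27 with a RefSeq start in the window, also chosen after seeing the data. Peaks seen in another replicate gave 154 higher for H3K36me2, and 57 lower and 106 higher for the CTD. With GC below 50%, 283 were lower for H3K36me2, and 90 lower and 137 higher for the CTD. With no minimum difference, 262 were lower and 226 higher for H3K36me2, and 57 lower for the CTD. The shares of GC-poor promoters and of all promoters tested called lower for H3K36me2 were 2.45% and 4.14% with peaks of −log10 p of 2 or more, 9.26% and 18.4% with 2 kb either side, and 10.5% and 16.4% with no minimum difference. Those called higher were 2.66% and 0.63%, 7.04% and 1.78%, and 9.09% and 2.88%. CTD calls with 2 kb either side were 3.10% and 2.89% lower, the reverse of the order in the report, and 3.42% and 5.13% higher. In every setting run, the share of GC-poor promoters was below that of all promoters tested for H3K36me2 lower and CTD higher, and above it for H3K36me2 higher. For CTD lower it was below in all but 2 kb either side and peaks of −log10 p of 2 or more, where both shares were 0 in the latter. For promoters that overlap no other and those with a RefSeq start, only the GC-poor promoters were restricted. There the share of all promoters tested was that of the main setting, so like was not compared with like. Leaving out each replicate gave 162 to 204 lower and 124 to 173 higher for H3K36me2, and 45 to 87 lower and 76 to 120 higher for the CTD.

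With the replicate number as a block (replicate block), the H3K36me2 differences were -0.04 in density (exact permutation test, p = 0.5), -0.07 in bases (p = 1 by the same exact test) and 0.75 against other promoters (p = 0.5 by the same exact test), and those of the CTD 0.07, 0.10 and -0.04. Deviations of lists with the same number correlated at 0.03 for H3K36me2 and between -0.03 and 0.03 for the CTD across GC-poor promoters. Within a condition the H3K36me2 deviations mirror each other, and CTD values of single promoters are hardly repeatable. These correlations therefore cannot show whether lists of the same number shared a culture or batch.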
